A study of Mus musculus with 8 samples.

Results

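Transcripts of 35 aminoacyl-tRNA synthetase genes were measured by RNA sequencing in mouse gastrocnemius, a hindlimb muscle made mainly of fast fibres. The genes were taken by symbol from a deposited count table of 48709 genes; all 35 were found, and all 35 were among the 14712 genes abundant enough to test. They encode 19 cytosolic polypeptides, of which those of Kars and Gars also serve mitochondria, and 16 mitochondrial ones. The libraries labelled knockout (n = 4, called E to H) came from C57BL/6 mice aged 16 weeks with the genotype GR(i)skm-/-, in which floxed alleles of Nr3c1, the glucocorticoid receptor gene, were to be deleted in mature myofibres by Cre-ERT2, an inducible recombinase driven by the skeletal actin promoter of human. The control libraries (n = 4, called A to D) came from mice of the same strain and age whose receptor gene was floxed, so both groups carry the floxed gene. Values of E to H and of A to D are listed in the order of the letters. That promoter is active in muscle fibres, so the nerve, vessel and immune cells of the tissue are not targeted.

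An aminoacyl-tRNA synthetase joins an amino acid to its tRNA, the step that fixes the reading of the genetic code. Class I and class II enzymes have unrelated catalytic domains. Several cytosolic synthetases sit with scaffold proteins in the multisynthetase complex, while mitochondria import a separate, nuclear-encoded set to translate the respiratory chain subunits of their own genome. Many cytosolic synthetase genes are known targets of ATF4, a transcription factor of the amino acid response.

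Not all libraries labelled knockout had less of the targeted gene. Nr3c1 stood at 87.1, 38.6, 96.7 and 42.8 TMM-scaled CPM (library-scaled counts, the unit of all levels below) in E to H, against 83.2, 89.6, 84.7 and 90.0 CPM in A to D. Libraries E and G were thus at the control level, and the log2 fold change of -0.39 ± 0.31 (SE) did not pass (edgeR's quasi-likelihood test, Benjamini-Hochberg adjusted p = 0.452). Which exons were floxed is not given in the sources used here and the counts are per gene, so results are given for the libraries labelled knockout, and the synthetase genes that pass are also given without E and G. Depth was 36680510 to 52200305 counts a library. Muscle fibre markers were abundant in every library, summing to 194000 to 219000 CPM in the libraries labelled knockout and 209000 to 258000 CPM in control, with none of the 12 at 0 and 2 of 12 lower (Acta1 and Mylpf, log2 fold changes of -0.33 and -0.52). Endothelial markers were lower for 2 of 8 and higher for 1 of 8, and their sums did not overlap (363 to 389 CPM in the libraries labelled knockout and 392 to 435 CPM in control, none at 0). Schwann cell markers were lower (7 of 7 passed, summed level 64.2 to 87.2 CPM in the libraries labelled knockout and 176 to 321 CPM in control, none at 0), macrophage markers were higher for 2 of 7 (75.5 to 116 CPM in the libraries labelled knockout and 53.2 to 82.6 CPM in control, none at 0), and B and plasma cell markers for 1 of 8 (115 to 339 CPM in the libraries labelled knockout and 95.9 to 204 CPM in control, none at 0). Fibroblast markers were higher for 1 of 7 and lower for 1 of 7 (963 to 1510 CPM in the libraries labelled knockout and 1040 to 1660 CPM in control, none at 0). No marker of T cells (3 of 6 tested), adipocytes, red blood cells or satellite cells passed. T cell markers still differed among libraries within each group. They summed to 9.57, 1.35, 8.91 and 0.317 CPM in E to H, against 8.08, 0.413, 0.237 and 0.924 CPM in A to D. Libraries A, E and G thus held the most T cell RNA. The part of these cells in the synthetase results was not tested, and in bulk tissue fewer cells of a type and less RNA per cell cannot be told apart.

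The synthetase genes as a group changed little. Of the 35, 1 rose (Lars) and 2 fell (Sars2 and Lars2) in the libraries labelled knockout, with an adjusted p below 0.05 over all genes tested. That is 8.57% of them, against 8.45% of all genes tested, with 4.04% of all genes called higher and 4.41% called lower. Without Lars2, 5.88% of the other 34 synthetase genes were called. Among the 9344 genes in the abundance range of those 34, 9.95% were called. The 95% interval of the fold change of each of the other 32 genes lay inside 1.5-fold either way, with the outermost bounds at 1.37-fold lower and 1.27-fold higher. Of the 35 genes, 31 were within 1.2-fold of control, as were 68% of all genes. In 9 genes the libraries of the groups did not overlap (2 higher, Lars and Hars2; 7 lower, Lars2, Sars2, Tars2, Wars, Farsa, Yars and Qars), which is 25.7% of them against 16.7% of all genes (7.68% higher and 9.02% lower). An unadjusted p under 0.05 was found for 10 of the 35, against 27.1% of all genes. The summed level of the 19 cytosolic genes was 1522 ± 43.5 CPM in the libraries labelled knockout and 1584 ± 58.3 CPM in control, and that of the 15 mitochondrial genes without Lars2 was 288 ± 7.05 CPM and 296 ± 8.46 CPM (SD, n = 4 each). Lars2 was left out of the sums for the reason given with its values.

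**Figure D1:**
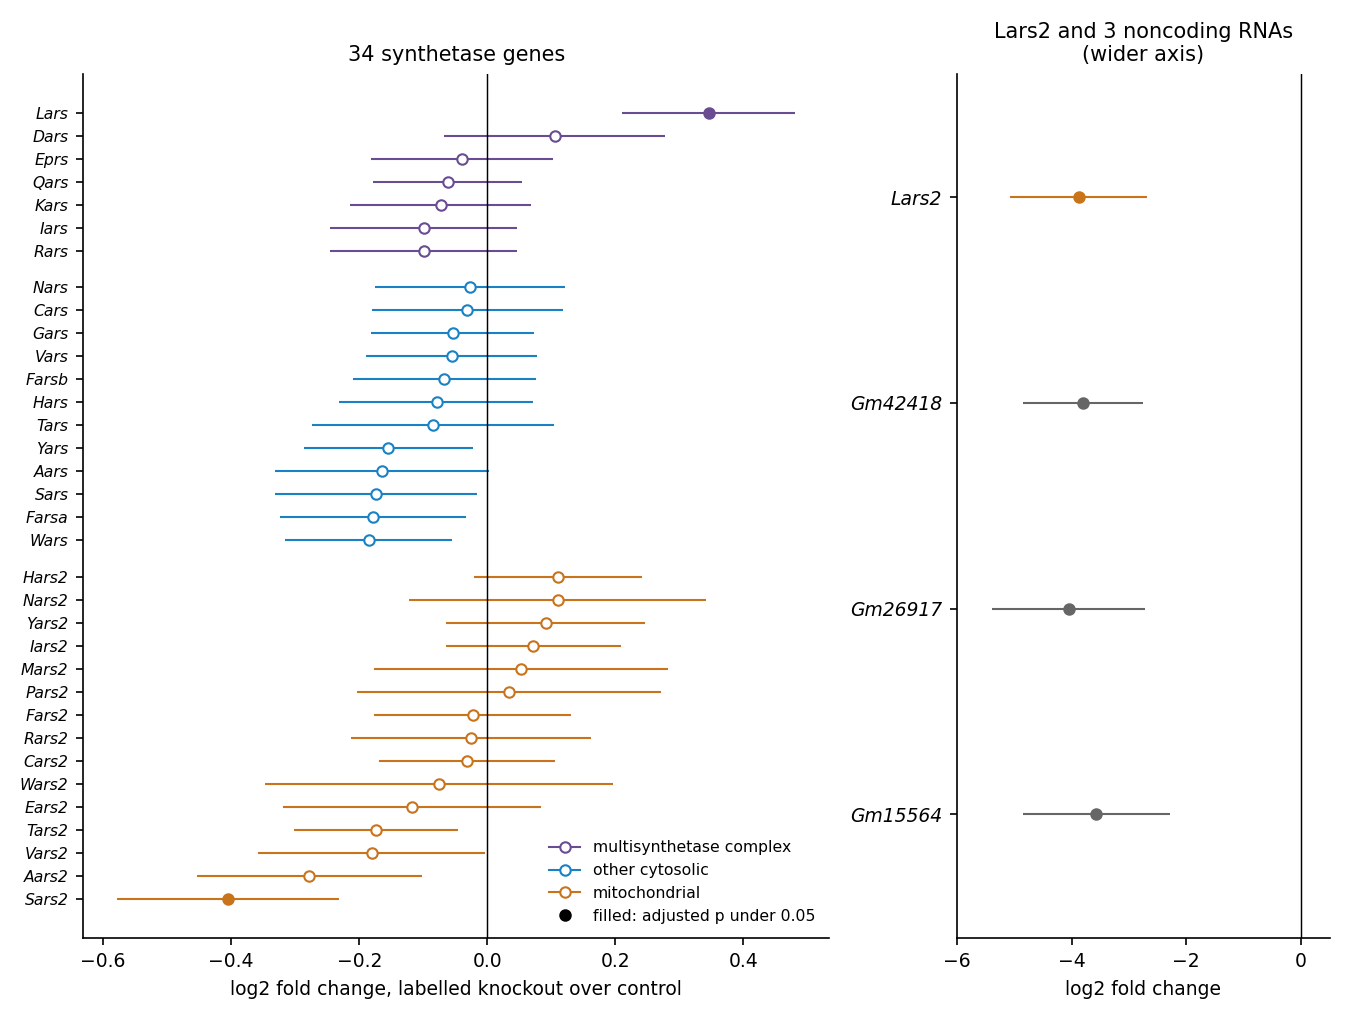
The left panel plots the log2 fold change, libraries labelled knockout over control, of 34 synthetase genes with its 95% interval (horizontal line), by group; the right panel plots Lars2 and 3 noncoding RNA genes on a wider axis. Filled points passed the edgeR test: on the left Lars, at 0.35, lies to the right of 0 and Sars2, at -0.40, to the left, and on the right all 4 genes lie between -3.57 and -4.05.

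The multisynthetase complex held the one gene that rose. Lars (ENSMUSG00000024493, chromosome 18, 42202298 to 42262194, minus strand of mm10) encodes the cytosolic leucyl-tRNA synthetase, a class I enzyme that in human cells also acts as a leucine sensor for mTORC1. It was at 70.8, 75.6, 68.1 and 70.0 CPM in E to H, against 55.2, 56.9, 59.0 and 52.7 CPM in A to D. All libraries labelled knockout were above all controls, and this held for E and G, whose Nr3c1 was at the control level. The log2 fold change was 0.35 ± 0.06 (SE), a 1.27-fold difference (edgeR's quasi-likelihood test, adjusted p = 0.00991). It was called with each library left out in turn (adjusted p 0.0129 to 0.034 in edgeR), and without both E and G it was 0.38 with an adjusted p of 0.0606. Lars lies 2.68 Mb from Nr3c1 on the same chromosome; the 3 tested genes between them and the 5 tested genes within 1 Mb of the Lars start were not called.

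The other 6 synthetases of the complex did not pass. Eprs, the fused glutamyl-prolyl enzyme, had the most counts of any member other than Lars2, at 277, 290, 269 and 269 CPM in E to H, against 271, 282, 308 and 274 CPM in A to D. The groups overlapped, and the log2 fold change was -0.04 ± 0.07. Iars (isoleucine), Qars (glutamine), Rars (arginine) and Kars (lysine) had log2 fold changes of -0.10, -0.06, -0.10 and -0.07, and Dars (aspartate) had 0.11, with adjusted p from 0.359 to 0.496 (edgeR). Qars stood apart by little: 67.0 to 70.0 CPM in the libraries labelled knockout and 70.3 to 72.4 CPM in control. The scaffold proteins of the complex did not pass either (0 of 3: Aimp1, Aimp2 and Eef1e1); the smallest p was that of Aimp2, at 125 ± 22.5 CPM in the libraries labelled knockout and 149 ± 19.5 CPM in control (SD, n = 4 each; log2 fold change -0.26, edgeR adjusted p = 0.225). The methionyl enzyme of the complex, Mars, was at 74.7 ± 2.04 CPM and 72.5 ± 2.04 CPM.

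Kars was the one member whose head-to-head neighbour passed. A total of 8 members start within 1 kb of a tested gene on the other strand, and for Kars this is Terf2ip, which encodes the telomere protein RAP1, with starts 75 bases apart. Terf2ip was at 14.2, 14.3, 13.6 and 11.7 CPM in E to H, against 22.2, 19.1, 21.2 and 21.7 CPM in A to D. It fell by 0.65 ± 0.08 on the log2 scale (edgeR adjusted p = 0.00268), with no overlap between the groups. Kars was at 108, 102, 99.0 and 95.2 CPM in E to H, against 108, 102, 113 and 102 CPM in A to D, with groups that overlapped (edgeR adjusted p = 0.496). The difference between the 2 genes' fold changes was not tested. The shared region is shown because the divergent genes had different calls; it is the RefSeq promoter of Kars (GRCm38.p6, chr8:112011305-112011604, minus strand), and the capitals mark the 1 match to CCAAT on either strand.
Kars: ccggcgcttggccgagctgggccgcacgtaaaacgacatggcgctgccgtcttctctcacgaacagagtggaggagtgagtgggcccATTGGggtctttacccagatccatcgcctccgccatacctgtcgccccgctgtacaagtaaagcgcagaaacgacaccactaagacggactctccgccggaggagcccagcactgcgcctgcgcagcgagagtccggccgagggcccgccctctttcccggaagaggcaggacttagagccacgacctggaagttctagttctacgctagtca

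The 12 cytosolic synthetase genes outside the complex all had fold changes just below 0, and none passed. Their log2 fold changes ran from -0.03 (Nars, asparagine) to -0.19 (Wars, tryptophan), with a median of -0.08 against -0.01 over all genes tested. All 12 were negative, but 7 of 12 were when libraries were scaled by library size alone, where the median of all genes was 0.06, and 10 of 12 with the GC trend of each library removed. Wars, an interferon-induced gene in many cell types, was at 36.5, 33.7, 32.9 and 34.5 CPM in E to H, against 37.9, 38.2, 40.2 and 40.1 CPM in A to D. Its groups did not overlap, though by a narrow margin, and its adjusted p was 0.0771 (edgeR). Farsa, the alpha subunit of the phenylalanyl enzyme, was at 20.2 to 22.2 CPM in the libraries labelled knockout and 23.0 to 25.7 CPM in control (log2 fold change -0.18, edgeR adjusted p = 0.112), while Farsb, its beta subunit, overlapped between the groups at 57.5 to 62.8 CPM and 56.9 to 64.9 CPM. Yars (tyrosine) was at 50.9 to 54.7 CPM and 54.8 to 61.3 CPM (edgeR adjusted p = 0.128). Sars (serine) and Aars (alanine) had log2 fold changes of -0.17 and -0.16 with overlapping groups, and Gars (glycine), Hars (histidine), Tars (threonine), Vars (valine) and Cars (cysteine) lay between -0.03 and -0.09.

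Promoter sequence of 26 of the 35 genes was found among 32851 RefSeq promoters, each 250 bases before to 50 after a start. The letters TGATGCAA, the composite element that ATF4 binds with a C/EBP partner, occurred on either strand in 4 of the 26 (15.4%) and in 0.895% of all promoters. Each of the 26 genes was counted once, with a match in any of its listed promoters, while all promoters were counted singly. The member shares and the shares of all promoters are therefore not counted alike. The 4 genes were Aars, Iars, Tars and Yars, all cytosolic. The matches in Iars, Tars and Yars are shown because ATF4 is the best known regulator of this gene family; each is given as 30 bases on the gene's own strand of GRCm38.p6, with the match in capitals (TTGCATCA is the element read on the other strand).
Iars, chr13:49682126-49682155, plus strand: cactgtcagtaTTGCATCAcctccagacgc
Tars, chr15:11399655-11399684, minus strand: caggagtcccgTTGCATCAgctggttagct
Yars, chr4:129189895-129189924, plus strand: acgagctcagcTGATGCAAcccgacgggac
The match began 15 bases before the RefSeq start in Tars and just after it in Iars and Yars. None of the 4 genes passed the edgeR test: their log2 fold changes were -0.16 (Aars), -0.10 (Iars), -0.09 (Tars) and -0.16 (Yars). The palindromic glucocorticoid response element, searched on either strand, had 0 matches in the 26 genes, against 0.475% of all promoters. With so low a share, 0 matches in 26 genes cannot show that these genes lack the element more than others.

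Of 26 tested genes of ATF4 and the amino acid response, 1 fell and none rose. Atf4 was at 167 ± 7.48 CPM in the libraries labelled knockout and 180 ± 14.0 CPM in control (SD, n = 4 each; log2 fold change -0.11, edgeR adjusted p = 0.339). Asns, the asparagine synthetase gene that ATF4 induces, was at 1.48 ± 0.13 CPM and 1.497 ± 0.39 CPM. Eif4ebp1, which encodes a repressor of cap-dependent translation, was at 26.6, 23.6, 21.4 and 17.0 CPM in E to H, against 36.2, 27.5, 44.4 and 30.3 CPM in A to D. Its groups did not overlap and it fell by 0.65 on the log2 scale, just inside the threshold (edgeR adjusted p = 0.0499); the call was lost without each of A, C, D, F, G and H (up to 0.135). Of 17 other interferon-induced genes, a list without Wars itself, 2 rose (11.8%, against 4.04% of all genes tested called higher). The list's median log2 fold change was 0.008, with 8 of 17 negative. Iigp1, an immunity-related GTPase, was at 92.9 ± 38.3 CPM in the libraries labelled knockout and 9.49 ± 2.43 CPM in control (log2 fold change 3.29, edgeR adjusted p = 0.00378). The related Igtp had a log2 fold change of 0.54 (edgeR adjusted p = 0.033).

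Both lower calls, Sars2 and Lars2, were of mitochondrial genes. Without Lars2, 1 of the other 15 was called lower (6.67%, against 4.41% of all genes tested). Sars2 (ENSMUSG00000070699, chromosome 7, 28741992 to 28753871, plus strand) encodes the class II enzyme that charges the mitochondrial serine tRNAs. It was at 10.6, 11.5, 10.4 and 11.1 CPM in E to H, against 13.3, 13.7, 15.4 and 15.4 CPM in A to D. Every library labelled knockout was below every control. The log2 fold change was -0.40 ± 0.08 (SE), 1.32-fold lower (edgeR's quasi-likelihood test, adjusted p = 0.0138). Sars2 is also among the members richest in GC (60.1% of its longest transcript), and with each library's trend of counts on GC removed its log2 fold change was -0.25 with an adjusted p of 0.133 (edgeR). The call was also lost without G alone (-0.38, adjusted p = 0.0565) and without E and G (-0.36, adjusted p = 0.124).

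Sars2 starts 172 bases from Mrps12, a gene of the mitochondrial ribosome read in the other direction. Mrps12 was at 22.2, 21.5, 18.6 and 18.95 CPM in E to H, against 23.7, 18.0, 27.1 and 22.0 CPM in A to D, and did not pass (log2 fold change -0.16, edgeR adjusted p = 0.395). The RefSeq promoter of Sars2 (GRCm38.p6, chr7:28741718-28742017, plus strand) spans the starts of both genes and is shown because Sars2 passed and its neighbour did not. It held 4 matches to CCAAT, each on the strand opposite to Sars2 and so read here as ATTGG, in capitals. A CCAAT match on either strand occurred in 12 of the 26 synthetase genes (46.2%) and in 37.4% of all promoters. The letters CCGGAAG, a form of the ETS site, occurred in 8 of the 26, Sars2 among them (30.8% against 8.86% of all promoters). As above, members were counted by gene and all promoters singly.
Sars2: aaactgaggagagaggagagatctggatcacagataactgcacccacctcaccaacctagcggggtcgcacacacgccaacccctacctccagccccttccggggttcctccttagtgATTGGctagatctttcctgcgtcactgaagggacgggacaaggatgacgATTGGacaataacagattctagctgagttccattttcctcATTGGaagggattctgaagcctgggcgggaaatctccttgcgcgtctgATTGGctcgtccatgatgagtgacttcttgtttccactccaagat

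Aars2 fell just short of the threshold. This class II enzyme charges mitochondrial alanine tRNA, and its human gene is linked to an infantile cardiomyopathy. It was at 22.8, 20.04, 20.2 and 20.4 CPM in E to H, against 27.1, 22.5, 27.1 and 24.5 CPM in A to D. Library E lay above control library B, the only overlap. The log2 fold change was -0.28 ± 0.08 (SE; edgeR adjusted p = 0.0553), and it was called by the DESeq2 Wald test (adjusted p = 0.0297) and limma-voom (adjusted p = 0.0268) and not with the GC trend removed (-0.12, edgeR adjusted p = 0.288). Its transcript is 60.0% GC, close to that of Sars2.

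Among the other 13 mitochondrial genes beside Lars2, none passed. Tars2 (threonine) was at 30.9, 28.4, 29.5 and 28.1 CPM in E to H, against 33.7, 32.9, 32.9 and 32.3 CPM in A to D, with no overlap and an adjusted p of 0.0876 (edgeR; log2 fold change -0.17). Hars2 (histidine) was at 23.1, 23.3, 23.3 and 23.4 CPM in E to H, against 20.3, 22.3, 21.5 and 22.1 CPM in A to D, also with no overlap (0.11, edgeR adjusted p = 0.253). Hars2 overlaps Hars head to head, with starts 197 bases apart; Hars was at 29.3 to 32.3 CPM and 29.7 to 35.4 CPM. In all, 9 members overlap another tested gene (Hars, Hars2, Wars, Yars, Cars2, Ears2, Fars2, Iars2 and Farsb), and whether reads were counted by strand is not given in the sources used here, so their counts may hold reads of the partner. Vars2 (valine) and Ears2 (glutamate) had log2 fold changes of -0.18 and -0.12, Cars2, Fars2, Rars2 and Wars2 lay between -0.02 and -0.08, and Iars2, Mars2, Nars2, Pars2 and Yars2 were positive, from 0.03 to 0.11. The 15 genes without Lars2 had a median log2 fold change of -0.03, with 9 negative.

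**Figure D2:**
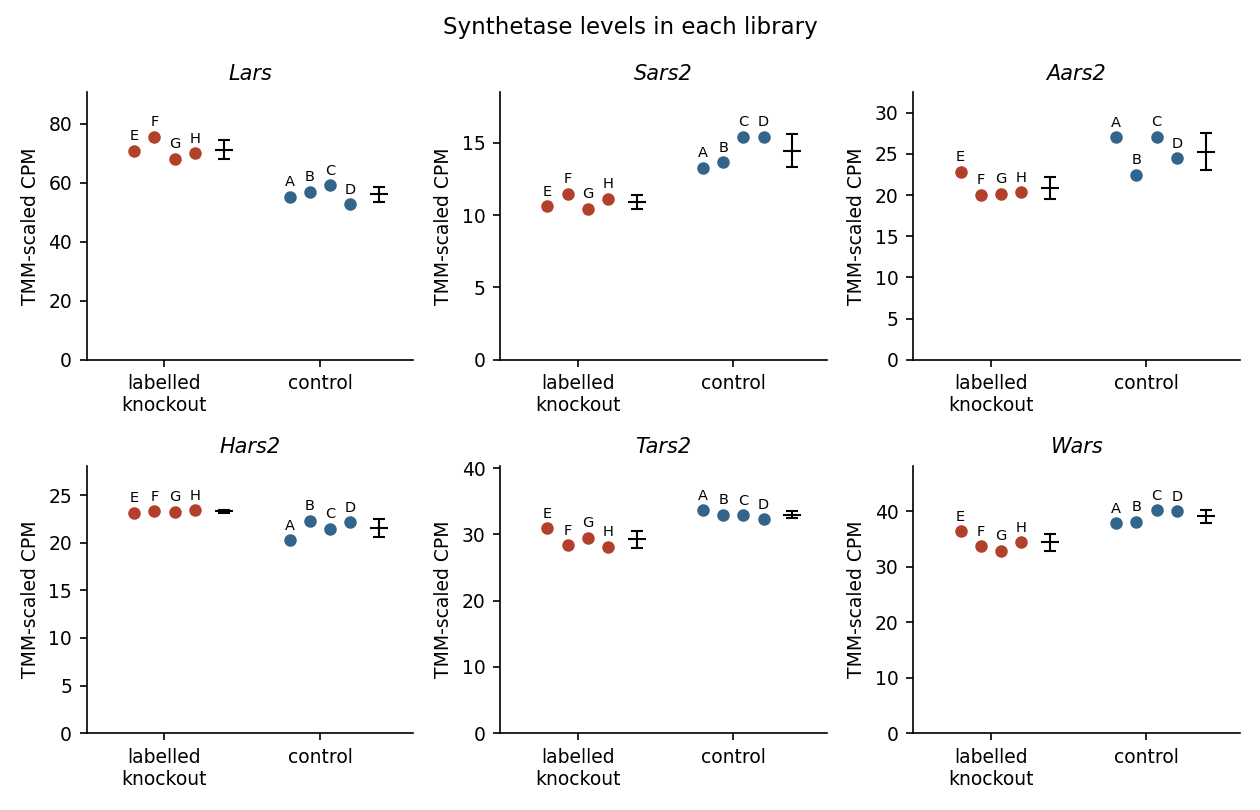
TMM-scaled CPM of 6 synthetase genes in each library, libraries labelled knockout (E to H) left and control (A to D) right, with the mean and SD beside each group; every axis starts at 0. Lars is higher in all 4 libraries labelled knockout, with 68.1 CPM as the lowest against 59.0 CPM as the highest control, Sars2 is lower in all 4, and for Aars2 library E lies above control library B.

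Lars2 (ENSMUSG00000035202, chromosome 9, 123366927 to 123462666, plus strand), the gene of the mitochondrial leucyl-tRNA synthetase, had the largest difference of the 35. It was at 216, 207, 271 and 226 CPM in E to H, against 3153, 4019, 5301 and 1013 CPM in A to D. The fold change was -3.87 ± 0.50 on the log2 scale (edgeR adjusted p = 0.00962), and controls alone spanned 5.23-fold. Without E and G it was -3.96 with an adjusted p of 0.0866 (edgeR). In these counts the enzyme's mRNA and reads of ribosomal RNA cannot be told apart. The gene's counts followed those of Gm42418, an annotated long noncoding RNA on chromosome 17 that overlaps sequence of ribosomal RNA. Lars2 held 0.292, 0.271, 0.290 and 0.285 counts per Gm42418 count in E to H, against 0.263, 0.318, 0.318 and 0.264 in A to D. The ratio moved 1.21-fold over the 8 libraries, while Lars2 CPM moved 25.7-fold and Gm42418 CPM 22.5-fold. The means were 0.284 ± 0.00953 in the libraries labelled knockout and 0.291 ± 0.0314 in control (SD, n = 4 each), and their difference did not pass a two-sided exact permutation test (p = 0.686, smallest possible 0.0286). Gm42418 itself fell by 3.80 ± 0.45 on the log2 scale and its neighbour Gm26917 by 4.05 ± 0.56 (edgeR adjusted p = 0.00637 and 0.011).

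**Figure D3:**
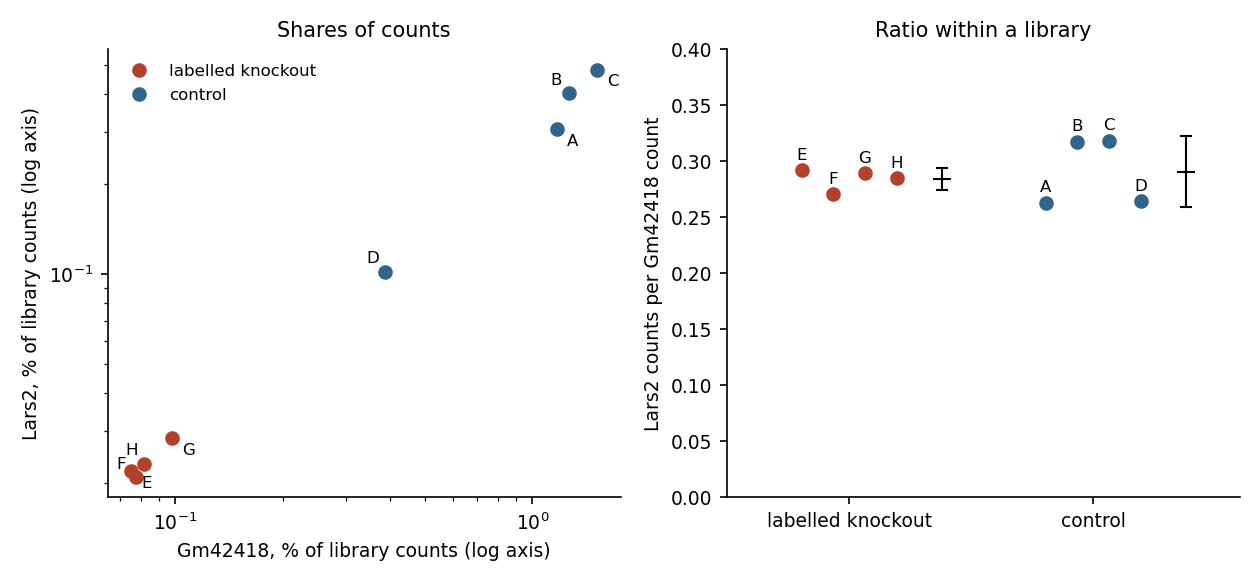
Left, share of library counts in Lars2 against Gm42418, both on log axes, 1 point per library; right, Lars2 counts per Gm42418 count in each library with the mean and SD. The libraries labelled knockout sit at 0.021% to 0.0283% for Lars2 and the controls at 0.102% to 0.484%, along a line on which the ratio stays between 0.263 and 0.318.

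A stretch of Lars2 mRNA matched another transcript that fell. Bases 3278 to 3349 of Lars2-201 (3894 bases, last coding base 2908, so in the 3′ untranslated region) were 98.6% identical over 72 bases to Gm15564, a noncoding gene antisense on chromosome 16 that was chosen after its values were seen. Gm15564 was at 1.17, 1.73, 3.48 and 3.46 CPM in E to H, against 22.2, 45.7, 37.9 and 12.5 CPM in A to D, and fell by 3.57 ± 0.54 on the log2 scale (edgeR adjusted p = 0.0138). The 35 synthetase genes were searched for matches to Gm42418, Gm26917, Gm15564 and AA474408. Lars2 alone had a match of at least 95% over at least 50 bases, and it was the match to Gm15564. Both Gm15564 and AA474408 were chosen with their values known, so this search was not a test. In a search of all annotated transcripts, 2 genes other than Lars2 matched this stretch: Gm15564 and AA474408 (80.1% over 196 bases). AA474408 also fell, by 2.27 ± 0.39 on the log2 scale (edgeR adjusted p = 0.00962). AA474408 also matched coding transcripts of other members, among them Iars2 (82.9% over 129 bases) and Tars2 (80.3% over 147 bases). A match to AA474408 is therefore not particular to Lars2. Neither Iars2 nor Tars2 passed (log2 fold changes of 0.07 and -0.17). Whether any of these matches drew reads was not tested. The ratio of Lars2 to Gm15564 counts moved more than that to Gm42418, 2.83-fold over the 8 libraries (65.4 to 185 in E to H, and 80.9 to 142 in A to D). Lars2 had no match to Gm42418 or Gm26917 themselves. Counts per gene do not show where in Lars2 the reads lay. Of 6 tested genes on a list of ribosomal and other noncoding RNAs, 4 fell. They were Gm42418, Gm26917, and Rpph1 and Rmrp, the RNA parts of RNase P and RNase MRP. The mitochondrial ribosomal mt-Rnr2 did not pass (-0.36, edgeR adjusted p = 0.159). Leaving Lars2 and this list out of the scaling left Lars and Sars2 called.

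Per kilobase of the longest coding transcript, which allows genes to be compared, Eprs led the members other than Lars2 at 56.3 ± 1.99 CPM per kb in the libraries labelled knockout and 57.9 ± 3.42 CPM per kb in control. Nars (48.7 and 49.6 CPM per kb) and Kars (46.2 and 48.6 CPM per kb) came next and lay within the spread of each other, and Dars (38.5 and 35.8 CPM per kb) and Gars (32.5 and 33.7 CPM per kb) followed. The lowest were all mitochondrial: Nars2 at 1.98 and 1.83 CPM per kb, Wars2 at 1.36 and 1.43, Pars2 at 1.33 and 1.30, and Mars2 at 0.98 and 0.95. The rank of Mars2, lowest on this scale, depends on an annotated transcript of 11294 bases. Without division by length Mars2 was at 11.1 and 10.7 CPM, above Pars2 at 4.07 and 3.97 CPM. Wars2 and Pars2 were within their spread of each other. Iars2, at 15.7 and 14.9 CPM per kb, was the highest mitochondrial gene beside Lars2. The order of the first 8 ranks, Lars2 included, was the same in both groups, and Lars stood at rank 14 in the libraries labelled knockout, against rank 17 in control.

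For 12 amino acids the cytosolic and mitochondrial enzymes are encoded by 1 member each. In 11 of them, leucine left out, the cytosolic gene was higher per kilobase in all 8 libraries, with a median ratio of 3.12 in the libraries labelled knockout and 2.86 in control. The gap was widest for asparagine (25.0 ± 3.98 and 27.1 ± 1.003) and narrowest for threonine (1.37 ± 0.14 and 1.29 ± 0.10). The ratio did not overlap between the groups for isoleucine (1.54 ± 0.06 and 1.74 ± 0.12), alanine (3.53 ± 0.21 and 3.25 ± 0.03) and tyrosine (4.22 ± 0.28 and 4.99 ± 0.24). For serine the ratio of Sars to Sars2 was 4.29 ± 0.44 and 3.66 ± 0.30, with an overlap. These ratios were not tested, and the share of ratios without overlap among other pairs of genes was not computed. For single genes, 16.7% of all genes tested had no overlap. No shift is therefore read from the ratios without overlap.

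**Figure D4:**
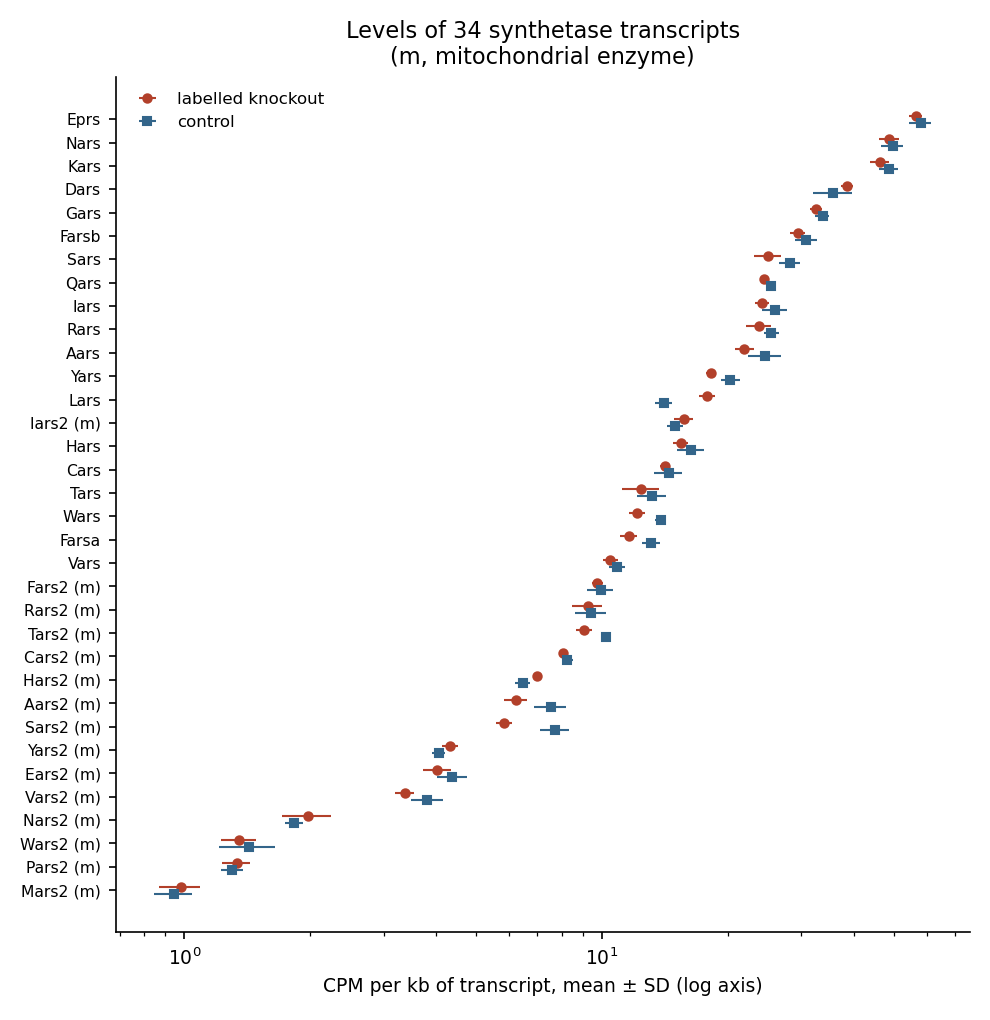
Mean CPM per kb of the longest coding transcript with its SD, on a log axis, for 34 synthetase genes, libraries labelled knockout (circles, upper) and control (squares, lower); m marks mitochondrial enzymes. Cytosolic genes fill the upper rows, from Eprs at 56.3 and 57.9 CPM per kb, and Mars2 is lowest at 0.98 and 0.95 CPM per kb.

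Small differences among the members varied with the GC content of their transcripts, as they did among all genes. Across the 34 genes without Lars2, Pearson's r of log2 fold change on GC content was -0.62 (Spearman's rho -0.59), and across 14687 genes it was -0.33. These are correlations across genes that share the same 8 libraries, and genes are not independent replicates. Of the 16 members with over 50% GC, 15 had negative log2 fold changes (median -0.14; all genes over 50% GC, -0.11), and of the 18 others 11 did (median -0.03; all such genes 0.09). With the trend of each library removed, the members' r was 0.10 and the medians were -0.04 and -0.11. Lars, at 47.0% GC, stood above the genes of like GC, and Vars, the member richest in GC at 60.9%, had a log2 fold change of -0.05.

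**Figure D5:**
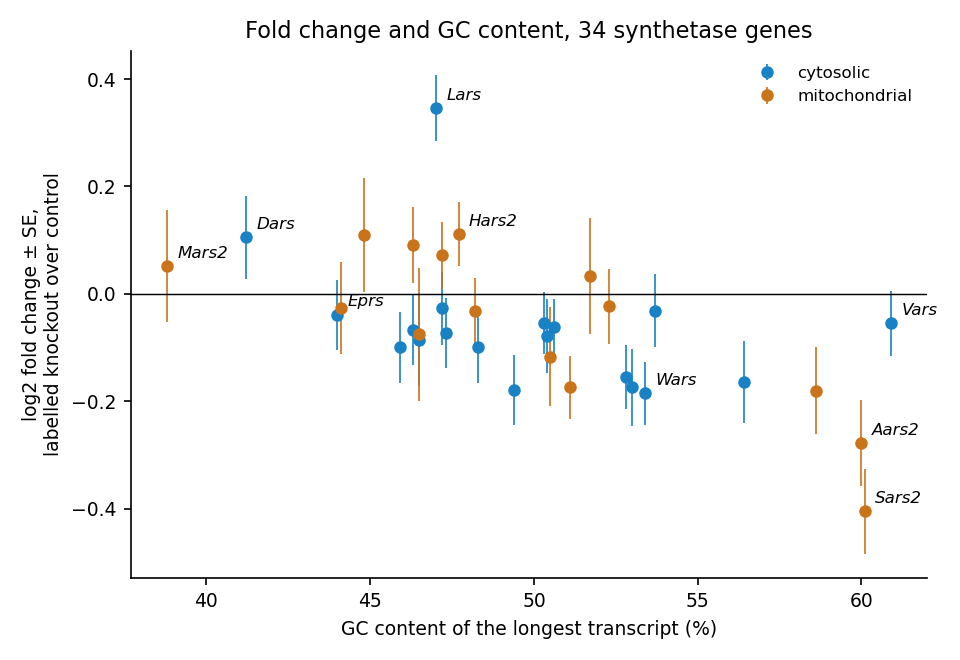
Log2 fold change with its SE against the GC content of the longest transcript for 34 synthetase genes, cytosolic and mitochondrial. Values run downward with GC content (r = -0.62), with Sars2 and Aars2 lowest at 60.1% and 60.0% GC and Lars apart at 47.0% GC.

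Other genes that act on tRNA or on mitochondrial gene expression moved little. Of 9 further genes of aminoacylation and the tRNA amidotransferase, 1 fell: Gatc, a subunit of the mitochondrial enzyme that converts Glu-tRNA(Gln) to Gln-tRNA(Gln), needed because mitochondria have no glutaminyl-tRNA synthetase. Gatc was at 34.6, 29.5, 29.7 and 26.5 CPM in E to H, against 37.4, 40.0, 41.1 and 36.2 CPM in A to D. The groups did not overlap and the log2 fold change was -0.36 ± 0.09 (edgeR adjusted p = 0.0265), but the call was lost without each of A, C, F, G and H (adjusted p up to 0.0841). Its partner subunits did not pass: Gatb was at 22.5 ± 1.39 CPM in the libraries labelled knockout and 20.8 ± 0.85 CPM in control, and Qrsl1 at 19.01 ± 0.65 CPM and 19.5 ± 0.86 CPM. Tarsl2, a second cytosolic threonyl enzyme, was at 87.8 ± 6.42 CPM and 87.4 ± 1.69 CPM (SD, n = 4 each throughout).

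None of 24 tested genes of tRNA processing and export passed, 8 of them with an unadjusted p under 0.05 in edgeR; the smallest was that of Elac2, the tRNA 3′ processing endonuclease, at 27.9 ± 1.18 CPM in the libraries labelled knockout and 32.9 ± 2.83 CPM in control (log2 fold change -0.24, edgeR adjusted p = 0.0718). None of 12 genes of mitochondrial gene expression, most of them translation factors, passed, and 2 were under 0.05 unadjusted in edgeR. The smallest p was that of Tfam, the mitochondrial transcription and packaging factor. Tfam was at 50.8 ± 2.57 CPM in the libraries labelled knockout and 44.9 ± 3.24 CPM in control (log2 fold change 0.18, edgeR adjusted p = 0.13). None of 3 tested genes that edit mischarged tRNA passed, 0 of them under 0.05 unadjusted; Dtd1, a D-aminoacyl-tRNA deacylase, had the smallest p, at 8.70 ± 0.67 CPM and 9.55 ± 0.75 CPM (SD, n = 4 each).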

How the data were processed

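Poly(A) RNA of gastrocnemius was sequenced in 8 libraries. Per the labels' protocols, 700 ng of total RNA went into each strand-specific (dUTP) library. Per the submitters' processing notes, the tools were bcl2fastq 2.17.1.14, TopHat version 2, HOMER and edgeR, on mm10. The authors deposited raw read counts per gene, with no normalisation; the annotation behind them is not given in the sources used here. Columns were assigned to groups by name; their numbers are in no label, so libraries are lettered in column order and are not paired. The labels do not tie libraries to separate mice, so p-values reflect only differences among these libraries, which may be technical. No pair of libraries within a group agreed within sampling noise (12 pairs, smallest chi-square per degree of freedom 13.12).

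Genes passing filterByExpr (count of 10, total of 15) were scaled by TMM and compared by edgeR 4.0.16 robust quasi-likelihood tests (limma 3.58.1, R 4.3.3), adjusted by Benjamini-Hochberg over 14712 genes at 0.05; the script was tested on simulated counts. SE is the absolute log2 fold change over the square root of F. The rarest member, Pars2, had 139 to 198 counts a library, so counting error is part of its spread. Transcript lengths, GC content and sequences compared by blastn 2.17.0 came from GENCODE M21, promoters from RefSeq GRCm38.p6. The members and gene lists were chosen with earlier results of these data known. All members could be named; other genes by rule were Nr3c1, Gm42418, and from each list its called genes or the smallest p; Mars, Tarsl2, Gatb, Qrsl1, Atf4, Asns, Terf2ip, Mrps12, Gm26917, AA474408 and mt-Rnr2 were named after their values were seen. Alternatives were 4 scalings, 2 filters, DESeq2 1.42.0, limma-voom, GC trend removal (lowess, span 0.3), and libraries left out.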

Additional observations from a re-analysis of the deposited data

Results flagged for a closer look

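In each group of 4 libraries, the highest and lowest values of the 35 genes were compared with the rest by Dixon's test. It picked out 7 of 70 groups, where chance picks out about 1 in 20. Library F of the libraries labelled knockout held 47.31 CPM of Cars, against 44.67 to 45.08 CPM in E, G and H. Control library B was low for Cars, at 41.12 CPM against 48.11 to 48.58 CPM in the other controls, and for Gars, at 75.66 CPM against 81.52 to 82.33 CPM. Farsb was low in control library A, at 56.88 CPM against 64.65 to 64.89 CPM. Aars2 was high in library E, at 22.82 CPM against 20.04 to 20.37 CPM in F, G and H, and without E it passed (edgeR adjusted p = 0.0443). Ears2 was high in library H, at 9.198 CPM against 7.908 to 7.991 CPM in E, F and G, and in control library C, at 10.07 CPM against 8.493 to 8.715 CPM in A, B and D. Cars, Gars, Farsb and Ears2 did not pass with all 8 libraries.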

How the results depend on the processing

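No paired analysis was possible because the columns carry numbers that are in no label. The count over all genes, 1243, was 2026 by the DESeq2 Wald test, 1871 by limma-voom, 683 with the GC trend removed and 226 of 15183 (1.49%) without E and G; with 1 library left out it ran from 373 (without G) to 1794 (without B), and was 606, 612, 642 and 699 without A, C, F and H. Members called higher were 1 in every alternative except 0 without E and G, and 1 to 1 with a library left out. Members called lower were 2, but 3 with upper-quartile scaling, the DESeq2 Wald test and limma-voom, where Aars2 was added, 1 with the GC trend removed, 0 without E and G, and 1 to 3 with a library left out, where the 1 was without G. Without E and G the directions held (Lars 0.38, Sars2 -0.36, Lars2 -3.96, with adjusted p of 0.0606, 0.124 and 0.0866 in edgeR), with fewer libraries in the fit. Scaling to total counts put 69.8% of all calls in the higher direction, against 47.8% under TMM, and shifted the median log2 fold change of all genes to 0.06; under it 14 of the 32 members that did not pass were negative, against 25. Aars2 was also called with upper-quartile scaling (adjusted p = 0.0492) and without B (0.025); over its alternatives its adjusted p ran from 0.025 to 0.288. The cause of these shifts was not tested. Depth limits the rarest members most: Pars2 had 139 to 198 counts a library.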
